A study of Homo sapiens with 6 samples.

Results

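The antisense RNA genes expressed in SW480 colorectal adenocarcinoma cells were compared with the sense genes they are named after, between cells carrying a short hairpin against MORC2 and control cells. Members were the genes of the deposited count table whose symbol ends in -AS1 and whose counts summed to at least 600 over the 6 libraries. There were 258 of them among 1029 genes ending in -AS1 and 56303 genes in the table. The gene named by the symbol before -AS1 was taken as the partner and was in the table for 252 members. Members were thus selected on their level, which is given as a description.

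An antisense RNA is transcribed from the DNA strand opposite to another gene. Some antisense genes lie inside or across their partner, and their RNAs can pair with the sense RNA or be made at its expense. Others start close to the partner's own start and run away from it, as happens at the many human promoters that fire in both directions. RNAs of this second kind are often unstable and are trimmed by the nuclear RNA exosome. MORC2 is a chromatin ATPase that works with the HUSH silencing complex and also takes part in transcription and DNA repair.

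The libraries came from 2 groups of 3. The shCtrl cells carried a nonsilencing lentiviral hairpin and are labelled WT, and the shMORC2 cells carried a hairpin against MORC2 and are labelled MORC2 knockdown. Both groups shared the SW480 parent, the lentiviral vector and selection with puromycin as stable clonal lines. A single hairpin was used, so the effect of MORC2 loss and differences between the selected lines cannot be told apart. RNA was sequenced with a stranded, UMI-tagged mRNA kit. In bulk RNA, fewer cells of a type and less RNA per cell cannot be told apart. Nothing in the labels says whether the replicates came from separate cultures, so p-values measure the spread between these libraries.

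The library totals lay between 42092664 and 43434425 counts. MORC2 itself read 46.1, 46.4 and 48.8 CPM (counts scaled to library size with edgeR's TMM factors) in the shCtrl libraries and 35, 29.3 and 27.1 in the shMORC2 libraries. Every shMORC2 library lay below every shCtrl library. The fitted log2 fold change, shMORC2 over shCtrl here and throughout, was -0.63 with a standard error (SE) of 0.095 and an adjusted p of 0.000216 (edgeR quasi-likelihood, Benjamini-Hochberg over all genes tested). Of 10 colonic epithelial markers, 9 passed the filter on low counts, and their summed level was 20134 to 26175 CPM in shCtrl and 19172 to 26059 CPM in shMORC2. Most of this sum is KRT8 and KRT18, and among the other markers KRT20 rose by 0.75 and CDX2 by 0.47 while CEACAM5 fell by 1.08. Of 8 markers of other cells, 3 passed it, with summed levels over the list of 25.6 to 28.3 and 28.5 to 30.5 CPM. Of these 3, ALB fell by 2.23, from 102, 124 and 73 counts to 32, 14 and 18. A gene is called below when its adjusted p was under 0.05, and 39.5% of the 21005 genes tested were called.

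The first question for opposite-strand genes is whether the counts keep the strands apart, and the table was examined for it. There were 417 genes lying wholly inside the exons of a single gene on the opposite strand, itself with at least 600 counts. Of these, 404 had counts and 13 had none. Their counts per base were at a median of 0.709 of those of the covering gene, with quartiles of 0.237 and 1.5. For 227 genes lying inside exons of a gene on the same strand, the median was 0.366, with quartiles of 0.0273 and 1.66. That set holds many small nucleolar and other small RNA genes, so the medians come from unlike sets. A gene in the table inside an exon of GAPDH on the other strand, RP5-940J5.9, held 187354 counts on 422 bases, 1.80 times the density of GAPDH. Genes placed in the same way in UBB and CALR, RP11-138I1.4 and CTC-425F1.4, stood at 1.84 and 0.165 times the covering density. The log2 fold changes of the nested genes were 0.016, 0.001 and 0.98, and those of GAPDH, UBB and CALR were -0.18, 0.16 and 0.79. These examples were chosen after their values were seen.

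Members showed the same. ANO1-AS1 lies wholly inside the exons of ANO1, a calcium-activated chloride channel, and read 30.3 RPKM against 30.7 for ANO1. Its log2 fold change was -0.74, and that of ANO1 was also -0.74. C6orf47-AS1, the other member wholly inside its partner's exons, changed by 0.78 and C6orf47 by 0.85. MIF-AS1 shares 687 bases, 46.5% of its exons, with MIF, a macrophage cytokine gene. It held 11290, 10293 and 12033 counts in shCtrl and 20356, 21095 and 23441 in shMORC2. MIF held 11282, 10301 and 12040, then 20384, 21134 and 23469. The counts of MIF and MIF-AS1 differed by less than 50 in every library. Reads on bases that an antisense gene shares with its partner therefore cannot be assigned to a strand in this table, whatever the kit, and the changes of the pairs are compared below by whether exons are shared.

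**Figure D1:**
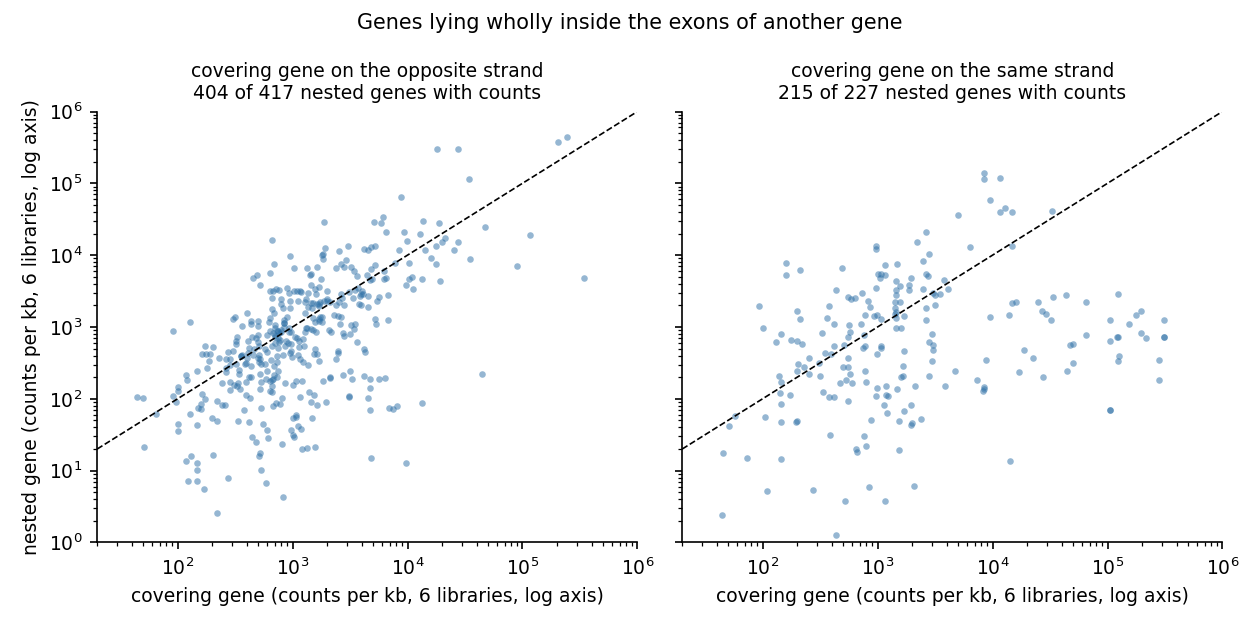
Each point is a gene lying wholly inside the exons of another gene, with its counts per kilobase summed over the 6 libraries on the vertical axis and those of the covering gene on the horizontal axis (both log axes; the dashed line marks equal density). Left, covering gene on the opposite strand, where 404 of 417 nested genes had counts; right, covering gene on the same strand, where 215 of 227 had counts.

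Of the 258 members, 212 share at least 1 exonic base with the partner. The shared bases made up a median of 15.2% of their exons. If the shared bases held counts at the partner's mean density, they would account for a median of 24.97% of the antisense gene's counts, and for more than all of them in 15 pairs. Another 16 members overlap the partner without sharing an exonic base, and 24 lie start to start with it and do not overlap. In those 24 pairs, the starts lie 1 to 417 bases apart, with a median of 102.5. The remaining 6 members have no partner in the table.

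The start-to-start pairs have no exonic base common to both genes, although the antisense gene can share bases with other genes, and 3 of these pairs that were called in opposite directions are given here as the antisense strand of their shared promoter. RefSeq promoter windows of 300 bases, from 250 before to 50 after a start, were found for 196 of 258 members and 217 of 252 partners in GRCh38.p14. In each window the antisense start is base 251. Capitals mark matches to the CCAAT box (CCAAT, or ATTGG on the other strand) and to the GC box (GGGCGG, or CCGCCC). The RAB30-AS1 window is chr11:83071816-83072115 on the plus strand, and RAB30 starts on the other strand at base 82 of it. The URB1-AS1 window is chr21:32392883-32393182 on the plus strand, with the URB1 start at base 130. The EIF3J-AS1 window is chr15:44536874-44537173 on the minus strand, with the EIF3J start at base 27. RefSeq names the first and the last of these antisense genes RAB30-DT and EIF3J-DT.
RAB30-AS1: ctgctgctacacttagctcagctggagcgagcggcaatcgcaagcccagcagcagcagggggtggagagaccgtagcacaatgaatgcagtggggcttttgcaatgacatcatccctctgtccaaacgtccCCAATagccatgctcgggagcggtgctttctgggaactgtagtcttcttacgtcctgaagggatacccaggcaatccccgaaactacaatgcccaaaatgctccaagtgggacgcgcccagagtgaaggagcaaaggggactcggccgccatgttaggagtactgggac
URB1-AS1: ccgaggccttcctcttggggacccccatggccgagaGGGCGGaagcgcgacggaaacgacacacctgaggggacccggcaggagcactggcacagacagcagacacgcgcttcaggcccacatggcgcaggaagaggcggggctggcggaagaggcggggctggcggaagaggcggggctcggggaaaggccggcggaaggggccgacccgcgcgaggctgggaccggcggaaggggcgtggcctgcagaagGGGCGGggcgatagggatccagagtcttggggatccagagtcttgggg
EIF3J-AS1: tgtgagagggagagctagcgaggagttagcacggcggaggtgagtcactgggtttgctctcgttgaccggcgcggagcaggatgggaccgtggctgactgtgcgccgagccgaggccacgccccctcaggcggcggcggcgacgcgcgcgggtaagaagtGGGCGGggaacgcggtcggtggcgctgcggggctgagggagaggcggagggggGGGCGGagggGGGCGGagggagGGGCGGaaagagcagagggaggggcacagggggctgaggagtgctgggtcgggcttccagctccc

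The RAB30-AS1 window holds 1 CCAAT box and no GC box, the URB1-AS1 window 2 GC boxes and the EIF3J-AS1 window 4. None of the 3 holds TATAAA on either strand. Over all 35116 RefSeq promoter windows of this length, 34.6% hold CCAAT, 45.0% GGGCGG and 11.5% TATAAA on either strand. The shares among the 232 windows of members were 34.9%, 59.1% and 6.03%, and among the 358 windows of partners 37.7%, 64.5% and 6.15%. The 20 windows of the start-to-start antisense genes had a median GC content of 71.2%, against 58.7% over all windows, and 85.0% of them held GGGCGG. A match describes these letters and is not a bound site.

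Antisense genes were mostly expressed below their partners. Their mean RPKM over the 6 libraries, a level per kilobase of exon, ran from 0.223 to 260, with a median of 3.69. The median of the partners was 6.46. In 83 of 251 pairs in which both genes passed the filter on low counts, the antisense gene had the higher RPKM. Members with the highest levels included MIF-AS1 at 260 RPKM, EZR-AS1 at 140, NUCB1-AS1 at 122, VIM-AS1 at 117 and RRM1-AS1 at 103. All of these share exonic bases with partners that are themselves highly expressed, such as EZR, the ezrin gene, at 455 RPKM and VIM, the vimentin gene, at 119. VIM-AS1 read 227, 262 and 236 CPM in shCtrl and 203, 235 and 240 in shMORC2, and the groups overlapped. EZR-AS1 read 21.8, 24.1 and 25.2 CPM and then 33.0, 40.6 and 38.1, with no overlap. At the threshold, FARP1-AS1 and ZFPM2-AS1 were just inside with 607 and 615 counts, and LGALS8-AS1 and ATP6V0E2-AS1 just outside with 592 each. The log2 fold changes of these 4 genes were 0.15, 0.15, 0.93 and 0.64.

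Knockdown of MORC2 went with changes in both directions. All 258 members passed the filter. Of these, 45 were called higher in shMORC2, 58 were called lower and 155 were not called. Among the 14335 genes with at least 600 counts, 22.8% were called higher and 24.3% lower, 47.1% in all. The called share of the members was 39.9%, below the 47.1% of the genes that meet the same minimum of counts. It was near the 39.5% of all genes tested, a set that also holds genes with fewer counts. These shares were not further matched for depth, and their differences were not tested. By class, 36 members sharing exons with the partner were called higher and 52 lower, against 7 and 3 of those lying start to start and apart, and 1 and 1 of those overlapping without shared exons. In 66 members every shMORC2 library lay above every shCtrl library, and in 75 every one lay below; over genes with at least 600 counts, 56.7% had groups that did not overlap in one direction or the other. The median log2 fold change was -0.06 over members and -0.02 over those genes. Of the 19 members with under 300 counts in 1 of the groups, 3 were called higher and 6 lower. MAFG-AS1 is among those called higher, and SLC7A11-AS1, CEBPB-AS1 and FAM222A-AS1 are among those called lower.

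**Figure D2:**
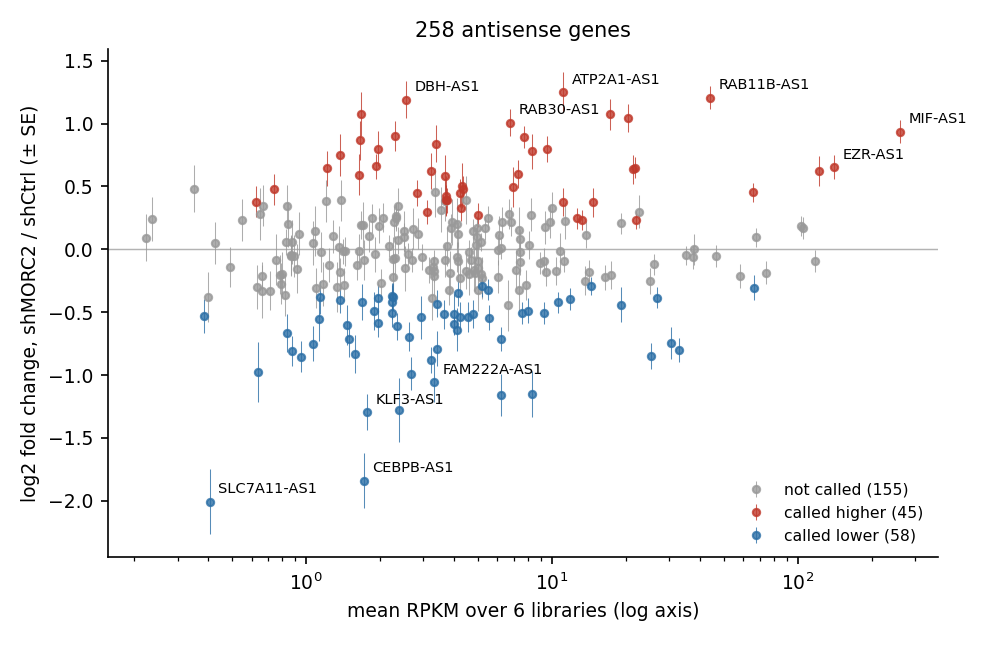
Log2 fold change of each of the 258 antisense genes (shMORC2 over shCtrl, with its SE as a bar) against its mean RPKM over 6 libraries (log axis). The 45 genes called higher are red, the 58 called lower blue and the 155 not called grey. Called genes include TTN-AS1 at 0.384 RPKM, SLC7A11-AS1 at 0.406 and MIF-AS1 at 260.

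Among the genes called higher with no overlap between groups, most of the largest changes came with a change of the partner in the same direction. RAB11B-AS1 lies start to start with RAB11B, a GTPase of recycling endosomes, and shares 306 bases, 26.5% of its exons, with it. It read 30.2, 28.7 and 33.5 CPM in shCtrl and 69.1, 66.2 and 77.9 in shMORC2. RAB11B read 69.8, 66.3 and 75.4 CPM, then 129, 124 and 144. Both rose in all 3 shMORC2 libraries, by 1.21 (SE 0.090, adjusted p = 8.46e-07) and 0.91 (SE 0.083, adjusted p = 3.84e-06) on the log2 scale. PITPNA-AS1 overlaps the end of PITPNA, a phosphatidylinositol transfer protein gene, over 69.9% of its own exons. It rose by 1.04 and PITPNA by 0.74. HMGN3-AS1, sharing 6.55% of its exons, rose by 1.07 with HMGN3, a nucleosome-binding protein gene, at 0.84. PSMB8-AS1, sharing 21.8%, rose by 1.07 with PSMB8, an immunoproteasome subunit, at 0.87. For PSMB8-AS1, the shared bases at the partner's density would give 112% of its counts. MIF-AS1 rose by 0.93 and MIF by 0.94.

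ATP2A1-AS1 and DBH-AS1 lie inside genes expressed at a low level in these cells. ATP2A1-AS1 lies within ATP2A1, the calcium pump of muscle, and read 4.92, 3.14 and 3.45 CPM in shCtrl and 8.72, 8.88 and 9.81 in shMORC2. It had the highest fitted change of all members, 1.25 (SE 0.16, adjusted p = 5.5e-05). ATP2A1 read 1.23 RPKM against 11.1 for the antisense gene, and its log2 fold change was 0.34 with an adjusted p of 0.0664, or 0.0298 with the replicate block, which made it a call. DBH-AS1, inside the dopamine beta-hydroxylase gene DBH, read 2.99, 3.78 and 3.23 CPM and then 8.60, 7.42 and 6.78. It rose by 1.19 (adjusted p = 3.84e-05) and DBH by 0.93 (adjusted p = 0.000783). ATP2A1-AS1 shares 246 exonic bases with ATP2A1, 42.2% of its exons, and DBH-AS1 shares 118 with DBH, 5.52%. Both antisense genes stood above their partners per kilobase.

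Most antisense genes called lower with the largest changes were also paired with partners that fell. SLC7A11-AS1 overlaps the end of SLC7A11, the cystine and glutamate exchanger, and shares 865 exonic bases with it. It read 2.62, 5.39 and 4.01 CPM in shCtrl and 1.17, 0.888 and 0.915 in shMORC2, and fell by 2.01 on the log2 scale (SE 0.26, adjusted p = 6.08e-05). SLC7A11 read 17.2, 25.6 and 17.7 CPM, then 7.46, 6.14 and 5.58, and fell by 1.65 (adjusted p = 5.64e-06). The lowest shCtrl library of the antisense gene stood at 115 counts and the highest shMORC2 library at 52. The antisense gene had under 300 counts in shMORC2 and met the minimum of 600 through shCtrl, where it was higher. CEBPB-AS1, which shares 231 exonic bases with CEBPB, read 4.70, 9.24 and 7.48 CPM and then 1.76, 1.99 and 2.23. It fell by 1.84 (adjusted p = 3.58e-05), and CEBPB, a leucine zipper transcription factor gene, fell by 1.38 (adjusted p = 1.79e-05). At the density of CEBPB the shared bases would give at least 50% of the CEBPB-AS1 counts, so part of its fall cannot be told apart from that of CEBPB.

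Of the other 6 among the 8 lowest, 5 fell with their partner, and FAM222A-AS1 is described with the pairs in opposite directions. BHLHE40-AS1 fell by 1.28 and BHLHE40, a circadian and hypoxia-linked repressor gene, by 0.88, although the libraries of BHLHE40 overlapped between groups. These 2 genes share 4 exonic bases. SIAH2-AS1, GRPEL2-AS1, TNK2-AS1 and KLF3-AS1 share 106, 127, 294 and 266 exonic bases with their partners. SIAH2-AS1 fell by 1.16 and SIAH2, a ubiquitin ligase gene, by 1.003. GRPEL2-AS1 fell by 1.15 and GRPEL2, a mitochondrial cochaperone gene, by 0.77. TNK2-AS1 fell by 0.99 and TNK2, a tyrosine kinase gene, by 0.56. KLF3-AS1 read 9.94, 12.8 and 13.7 CPM in shCtrl and 5.59, 4.73 and 4.53 in shMORC2. It fell by 1.29 (SE 0.14, adjusted p = 1.63e-05), further than KLF3, a repressor of the Krüppel-like family, which fell by 0.58 (adjusted p = 0.000432).

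Across all 251 pairs, the log2 fold changes of antisense gene and partner had the same sign in 176 pairs, 70.1%, with a Pearson r of 0.638 and a Spearman rho of 0.580. The pairs share libraries, and many share reads, so these are descriptions. Both genes were called in 74 pairs. The directions were the same in 66 of these, 27 higher and 39 lower, and opposite in 8; with the replicate block the opposite pairs numbered 14, including all 8, and without shCtrl replicate 2 they numbered 5. The antisense gene alone was called in 26 pairs, the partner alone in 49 and neither in 102. Among the 251 partners, 48 were called higher and 75 lower, beside 22.8% higher and 24.3% lower of all genes with at least 600 counts. Partners were not held to that minimum, and the difference was not tested.

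The likeness of antisense and partner went with shared exons. In the 212 pairs sharing exonic bases, the signs were the same in 73.6%, r was 0.753, and 63 pairs were called in the same direction against 4 in opposite directions. In the 39 pairs sharing none, 20 had the same sign, 51.3%, r was -0.11, and 3 pairs were called in the same direction against 4 in opposite directions. These 39 pool unlike classes. The 24 lying start to start and apart had 14 of the same sign and an r of 0.07, and the 15 overlapping without shared exons had 6 of the same sign and an r of -0.57. Leaving out antisense genes that share an exonic base with any other gene on either strand left 24 pairs, with 12 of the same sign, an r of -0.22, 2 called in the same direction and 2 in opposite directions. Over all 6022 pairs of overlapping genes on opposite strands in the table, whatever their names, r was 0.540 for the 4609 sharing exonic bases and 0.234 for the 1413 overlapping without sharing any. Whether the difference between the classes differs from that in other genes was not tested.

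**Figure D3:**
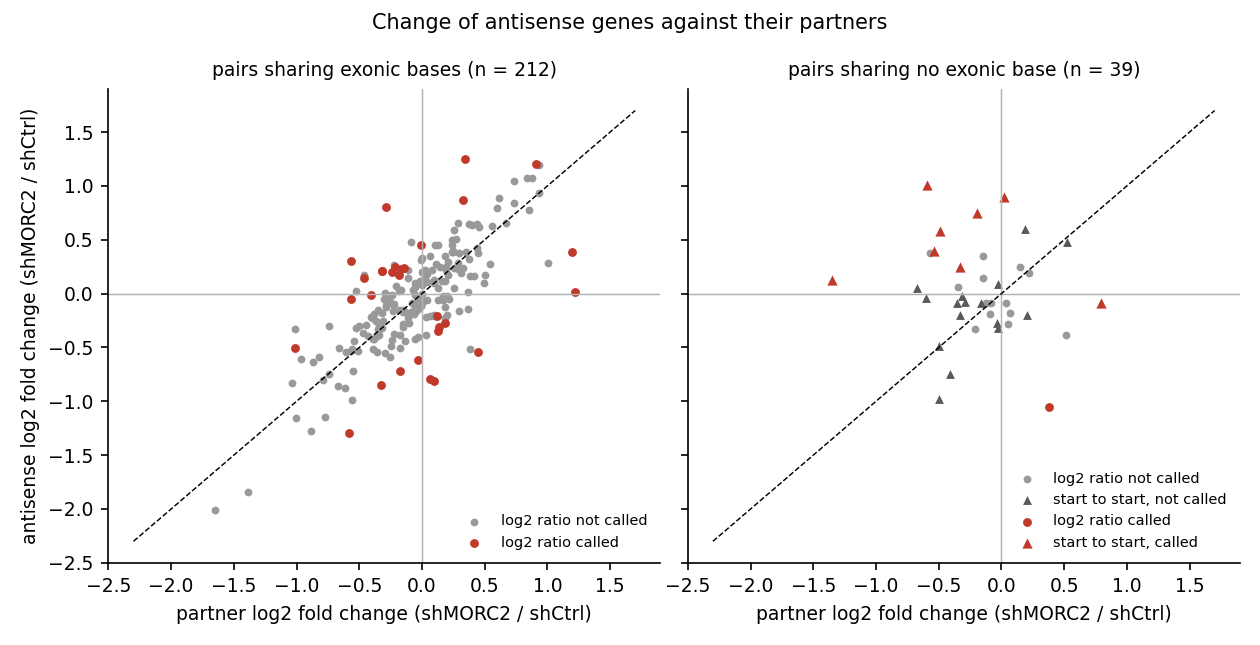
Log2 fold change of the antisense gene against that of its partner (shMORC2 over shCtrl), for the 212 pairs sharing exonic bases (left) and the 39 sharing none (right). Red marks pairs whose antisense-to-partner ratio was called, triangles mark pairs lying start to start and apart, and the dashed line marks equal change; points follow the line on the left (r = 0.753) and do not on the right (r = -0.11).

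By position, with or without shared exons, r was 0.761 for the 63 antisense genes inside their partner, 0.745 for the 64 overlapping it end to end, 0.777 for the 15 that contain it and 0.676 for the 85 tested pairs overlapping start to start. It was 0.07 for the 24 lying start to start and apart. In pairs that share exons, r was 0.633 where the shared bases could account for under 10% of the antisense counts, 0.803 between 10% and 50%, and 0.785 above that. These 3 sets held 53, 101 and 58 pairs.

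A change of the antisense gene relative to its partner was tested on the log2 ratio of their counts in each library, over all 556 pairs of the table named in this way (limma, Benjamini-Hochberg). A read counted for both genes pulls this ratio toward no change. The ratio was called in 11.7% of the 556 pairs. Among member pairs it was called in 39 of 251, 15.5%, with 24 ratios higher and 15 lower in shMORC2. This count rests on every library. With the replicate block it was 16, of which 14 were among the 39. Without shCtrl replicate 1, 2 or 3 it was 21, 15 and 11, and without shMORC2 replicate 1, 2 or 3 it was 17, 12 and 15. No ratio among the 39 changed direction in any of these fits. By class, 30 of 212 pairs sharing exons, 14.2%, and 8 of 24 lying start to start and apart, 33.3%, had a called ratio. Of those 8, 7 were higher and 1 lower, and in 5 to 8 of them the ratio was still called when any 1 library was left out.

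**Figure D4:**
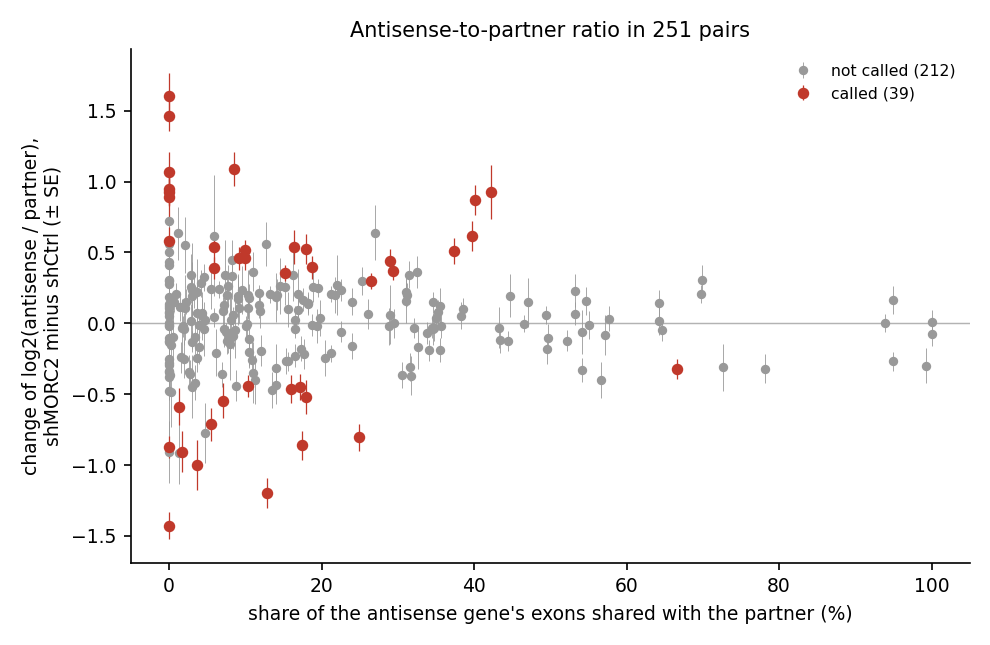
Change of log2(antisense/partner) between shMORC2 and shCtrl, with its SE as a bar, against the share of the antisense gene's exons that overlaps exons of the partner (%), for 251 pairs. The 39 called ratios (red) include 9 at 0% shared, and 1 of the 24 pairs with a share above 50% had a called ratio.

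The 24 start-to-start pairs held 7 antisense genes called higher and 3 lower, and their partners were called higher in 2 and lower in 11, beside 22.8% higher and 24.3% lower of all genes with at least 600 counts. The difference of these counts from those of all genes was not tested. The change of the log2 ratio was above 0 in 17 of 24, with a median of 0.23, against 0.04 over all 251 pairs. The antisense genes of these pairs named from here on were singled out after their values were seen, unless they are among the largest ratio changes. RAB30-AS1 gave the largest rise in ratio of all member pairs. It read 12.4, 9.5 and 10.8 CPM in shCtrl and 22.8, 21.8 and 21.3 in shMORC2. RAB30, a small GTPase of the Golgi, went the other way, from 20.3, 23.5 and 23.1 CPM to 15.2, 15.8 and 13.4. Neither gene's groups overlapped. The antisense gene rose by 1.01 (SE 0.11, adjusted p = 1.32e-05), the partner fell by 0.59 (SE 0.099, adjusted p = 0.00044), and the log2 ratio rose by 1.61 (SE 0.162, adjusted p = 0.00527). The RAB30-AS1 gene, chr11:83072066-83106719 on the plus strand, shares 295 exonic bases, 12.1% of its exons, with RP11-113K21.4 on the other strand, which rose by 1.18 (adjusted p = 1.87e-05). At the mean density of that gene the shared bases would give 56.2% of the RAB30-AS1 counts, so part of the rise cannot be told apart from that of RP11-113K21.4.

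URB1-AS1, at lower depth, and EIF3J-AS1 showed the same pattern. URB1-AS1 lies at chr21:32393130-32393960, 104 bases from the start of URB1, a ribosome biogenesis factor. It held 100, 108 and 102 counts in shCtrl and 147, 178 and 144 in shMORC2, and rose by 0.58 (SE 0.17, adjusted p = 0.0133). Without shMORC2 replicate 2 the change was 0.46 and the adjusted p 0.068. URB1 read 87.9, 87.6 and 83.7 CPM, then 60.2, 63.2 and 61.1, and fell by 0.49 (SE 0.071, adjusted p = 0.000152). EIF3J-AS1 read 11.3, 10.9 and 9.91 CPM in shCtrl and 14.1, 14.6 and 13.5 in shMORC2, and rose by 0.39 (adjusted p = 0.00691). EIF3J, which codes for a subunit linked to the translation initiation factor eIF3, went from 136, 122 and 119 CPM to 92.6, 83.3 and 84.0 and fell by 0.54 (adjusted p = 0.000191). The ratios rose by 1.06 (adjusted p = 0.0116) and 0.93 (adjusted p = 0.00527). URB1-AS1 shares no exonic base with any gene in the table, and EIF3J-AS1 shares 283 with CTDSPL2, whose log2 fold change was -0.03.

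In further start-to-start pairs a single gene of the pair was called. MAFG-AS1 held 74, 86 and 86 counts and then 140, 136 and 143, and rose by 0.75 (SE 0.17, adjusted p = 0.00323). It had under 300 counts in shCtrl and met the minimum of 600 through shMORC2, where it was higher. MAFG, a small Maf transcription factor gene, went from 46.5, 51.3 and 49.2 CPM to 43.8, 39.7 and 44.8, a log2 fold change of -0.20 with an adjusted p of 0.0663, or 0.0182 with the replicate block. FLVCR1-AS1 rose from 5.33, 4.44 and 5.05 CPM to 8.78, 9.26 and 9.62, by 0.90 (adjusted p = 7.78e-05). FLVCR1, a heme exporter gene, overlapped between groups at 13.1, 13.99 and 14.6 and then 15.9, 13.2 and 13.0 CPM. BAIAP2-AS1 read 24.2, 25.6 and 22.1 CPM and then 25.7, 31.3 and 28.5; its change of 0.25 had an adjusted p of 0.0504, or 0.00757 with the replicate block, while BAIAP2, a membrane-bending adaptor gene, fell by 0.33 (adjusted p = 0.0134, or 0.0688 without shCtrl replicate 2). OTUD6B-AS1, whose start lies 7 bases from that of the deubiquitinase gene OTUD6B, rose by 0.60 (adjusted p = 0.000839), and OTUD6B changed by 0.18 (adjusted p = 0.297, or 0.0265 with the replicate block and 0.0295 without shCtrl replicate 1). Its ratio change of 0.41 had an adjusted p of 0.0506.

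Among the start-to-start pairs lying apart, the ratio called lower was that of BOLA3-AS1 to BOLA3. BOLA3, a mitochondrial iron-sulfur cluster factor gene, rose from 9.004, 8.22 and 9.13 CPM to 14.9, 14.9 and 16.0, by 0.80 (SE 0.099, adjusted p = 4.52e-05). BOLA3-AS1, which starts 15 bases away, held 152, 118 and 145 counts and then 131, 125 and 139. Its groups overlapped, and its log2 fold change was -0.09 (SE 0.16, adjusted p = 0.703). The ratio fell by 0.88 (SE 0.0774, adjusted p = 0.00443). IL10RB and its antisense gene gave the reverse. IL10RB, an interleukin receptor chain gene, went from 12.9, 15.5 and 13.6 CPM to 5.07, 5.83 and 5.56 and fell by 1.35 (SE 0.12, adjusted p = 2.39e-06). IL10RB-AS1 read 5.81, 5.91 and 6.53 CPM and then 5.99, 6.74 and 7.13, a log2 fold change of 0.12 (adjusted p = 0.46). It shares 1803 bases, 80.9% of its exons, with the interferon receptor gene IFNAR2 on the other strand, whose log2 fold change was -0.18, so its counts cannot be told apart from those of IFNAR2.

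**Figure D5:**
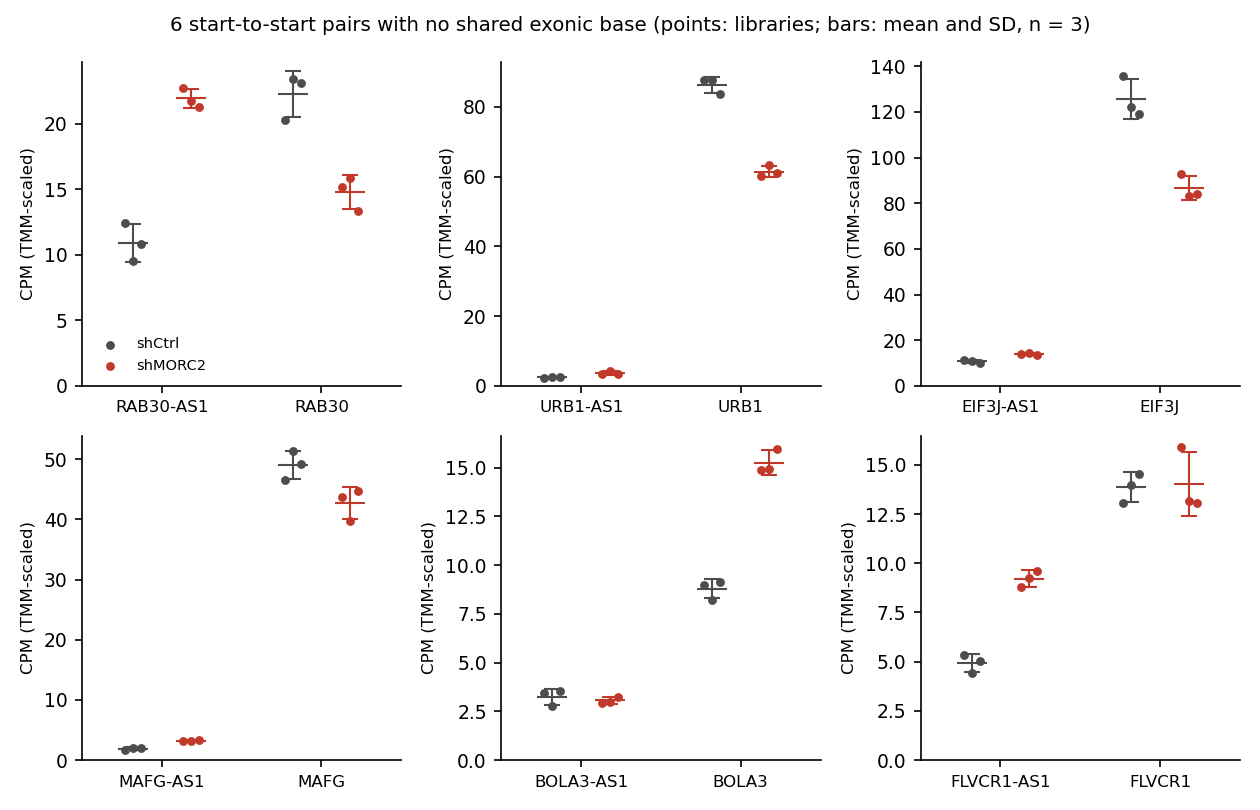
CPM (TMM-scaled) of antisense gene and partner in each library for 6 start-to-start pairs that share no exonic base (points are libraries, bars the mean and SD, n = 3 per group, shCtrl grey and shMORC2 red; axes start at 0). RAB30-AS1, URB1-AS1 and EIF3J-AS1 were higher and their partners lower in shMORC2, MAFG-AS1 and FLVCR1-AS1 were higher, and BOLA3 was higher with BOLA3-AS1 overlapping between groups.

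Not every start-to-start pair diverged. PAXIP1-AS1 and PAXIP1, a factor of histone methyltransferase complexes, fell by 0.49 and 0.50. FZD10-AS1 and the Wnt receptor gene FZD10 rose by 0.48 and 0.52. CAPN10-AS1 and the calpain gene CAPN10 fell by 0.75 and 0.41. SSTR5-AS1 fell by 0.98, and SSTR5, a somatostatin receptor gene, changed by -0.49 (adjusted p = 0.088). SSTR5-AS1 shares 879 bases, 21.9% of its exons, with RP11-161M6.5 on the other strand, which fell by 1.07 (adjusted p = 0.00566). At that gene's density these bases would give 57.0% of the SSTR5-AS1 counts. The ratios of these 4 pairs were not called, with adjusted p of 0.985, 0.946, 0.107 and 0.339.

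Other pairs called in opposite directions overlap. FAM222A-AS1 runs back across FAM222A from its end without sharing an exonic base. It read 4.97, 4.16 and 5.20 CPM in shCtrl and 2.16, 2.38 and 2.35 in shMORC2, and fell by 1.06 (SE 0.16, adjusted p = 0.00017). FAM222A read 12.7, 10.7 and 12.2 CPM, then 15.9, 14.3 and 16.1, and rose by 0.38 (SE 0.10, adjusted p = 0.0103, or 0.0527 without shCtrl replicate 2). The ratio fell by 1.43 (SE 0.0969, adjusted p = 0.00275), the largest fall among member pairs. WAC-AS1 shares its first 251 bases with WAC, an adaptor of histone ubiquitination, and went from 22.7, 20.2 and 18.8 CPM to 39.5, 36.4 and 31.5. WAC went from 144, 155 and 151 CPM to 127, 123 and 119. The antisense gene rose by 0.80 (adjusted p = 5.73e-05), WAC fell by 0.29 (adjusted p = 0.00575), and the ratio rose by 1.09 (adjusted p = 0.00729).

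SLC2A1-AS1 fell by 0.54 (adjusted p = 0.00294) and SLC2A1, the main glucose transporter gene, rose by 0.45 (adjusted p = 0.00419). SLC2A1 stood at 274 RPKM against 4.21 for the antisense gene. The 125 bases that the pair shares would at the density of SLC2A1 give 243% of the antisense counts. The ratio fell by 0.997 with an adjusted p of 0.0258 and was called in 4 of 11 alternative fits. In another pair called in opposite directions, chosen after its values were seen, SPAG5, a spindle protein gene, fell by 0.22 while SPAG5-AS1, which shares 384 exonic bases with it, rose by 0.25. Without shCtrl replicate 2 or shMORC2 replicate 2 or 3, SPAG5-AS1 was not called (adjusted p of 0.114, 0.0891 and 0.112). SPAG5 was not called in 5 of 14 alternative fits, which were those with no low-count filter and those without shCtrl replicate 1 or 3 or shMORC2 replicate 2 or 3 (adjusted p of 0.06, 0.0613, 0.141, 0.0739 and 0.124).

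The other large falls in ratio came from pairs in which a single gene moved. HLA-F, a nonclassical class I histocompatibility gene, went from 6.29, 7.02 and 6.58 CPM to 12.5, 16.7 and 17.2 and rose by 1.22 (adjusted p = 1.34e-05). HLA-F-AS1 shares 535 exonic bases with it and overlapped between groups, at 4.79, 6.83 and 5.44 and then 4.46, 6.10 and 6.69 CPM, and its ratio to HLA-F fell by 1.20 (adjusted p = 0.00443). Reads of HLA genes can be split among near-identical copies, so this pair is uncertain. SLC16A1-AS1 and STARD7-AS1 share 175 and 410 exonic bases with their partners. SLC16A1-AS1 fell by 0.81 (adjusted p = 0.000191) while SLC16A1, a lactate transporter gene, changed by 0.09 (adjusted p = 0.509). The ratio fell by 0.90 and was called in 6 of 11 alternative fits. STARD7-AS1 went from 11.2, 9.05 and 10.1 CPM to 6.96, 5.57 and 5.02 and fell by 0.79 (adjusted p = 0.000654). STARD7, a phospholipid transfer gene, changed by 0.06 (adjusted p = 0.606), and the ratio fell by 0.86 (adjusted p = 0.00914). FAM222A-AS1, HLA-F-AS1, BOLA3-AS1, STARD7-AS1, RAB30-AS1, IL10RB-AS1, WAC-AS1, MAFG-AS1 and EIF3J-AS1 kept a called ratio in 11 of 11 alternative fits, and URB1-AS1 in 10.

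Of the 57 antisense RNAs listed as studied in cancer, 26 are members, and 4 of these were called higher, 7 lower and 15 not. The called share was 42.3%, against 39.9% of all members and 47.1% of all genes with at least 600 counts. These differences were not tested. MAFG-AS1 and PITPNA-AS1 are described above. LBX2-AS1 rose by 0.80 together with LBX2 at 0.60. ELFN1-AS1, inside ELFN1 without a shared exonic base, rose from 11.0, 8.62 and 9.01 CPM to 12.3, 12.1 and 12.7, by 0.38 (adjusted p = 0.0175, or between 0.0595 and 0.0789 without shCtrl replicate 2 or 3 or shMORC2 replicate 3). HIF1A-AS1 went from 21.8, 19.96 and 21.8 CPM to 10.7, 13.4 and 11.3 and fell by 0.85 (adjusted p = 4.26e-05). HIF1A, the hypoxia-inducible factor gene, fell by 0.33 (adjusted p = 0.00397), and the ratio fell by 0.52 (adjusted p = 0.0448). SBF2-AS1 fell by 0.50 and SBF2 by 1.02, and the ratio rose by 0.51 (adjusted p = 0.0282). The ratios of HIF1A-AS1 and SBF2-AS1 had larger adjusted p than that of SLC2A1-AS1, which was called in 4 of 11 alternative fits. LBX2-AS1, HIF1A-AS1 and SBF2-AS1 share 650, 117 and 1484 exonic bases with their partners. THAP9-AS1, TTN-AS1, MAPKAPK5-AS1, TMPO-AS1 and CERS6-AS1 fell by 0.42, 0.53, 0.39, 0.38 and 0.32. The partner MAPKAPK5 fell by 0.36, CERS6 by 0.53 and TTN by 0.51.

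Among the 6 members with no partner in the table, JHDM1D-AS1 rose by 0.48 (adjusted p = 0.00305), and MLK7-AS1 and TRG-AS1 fell by 0.69 (adjusted p = 0.000507) and 0.66 (adjusted p = 0.00364). HOXB-AS1, RPARP-AS1 and MFI2-AS1 were not called. MORC2-AS1, the antisense gene of MORC2 itself, was below the threshold for members with 248 counts. It held 59, 54 and 39 counts in shCtrl and 34, 38 and 24 in shMORC2. Its log2 fold change was -0.67 with an adjusted p of 0.0696, or 0.0453 with the replicate block, and it shares exons with MORC2, which fell by 0.63.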

How the data were processed

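RNA-seq of 6 SW480 libraries was used, 3 per group by the labels. The deposited table holds raw counts per gene and the RPKM that the authors made from them, which equal count over exonic length and library total. The submitters' processing notes name GRCh38, Trimmomatic 0.36, STAR 2.5.3a, featureCounts, Subread 1.5.1 and edgeR 3.12.1; the strand setting and the treatment of UMIs in counting are not given in the sources used here. Of 461 member and partner symbols with a single entry in GENCODE release 44, 461 overlapped that entry on the same strand. The deposited splicing tables hold the authors' own comparison and were not used.

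Genes passing edgeR's filterByExpr were tested with edgeR 4.0.16 (R 4.3.3) quasi-likelihood on TMM-scaled counts, group only, with Benjamini-Hochberg adjustment over 21005 genes. SE is the log2 fold change over the root of F. The log2 ratio of (count + 0.5) was tested with limma 3.58.1. DESeq2 1.42.0 was an alternative. Deviations of same-numbered libraries from their group means correlated at 0.215, 0.111 and 0.102. The labels do not say that the replicate number pairs libraries, so the main fit left it out. A fit with the replicate number as a block was an alternative and is given where it changes a call.

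Members, lists and tests were chosen with earlier results of these data known. Named genes are the 8 highest and 8 lowest called members whose groups did not overlap, the 6 most abundant, the 6 largest called ratio changes in each direction, the 4 largest of the pairs in opposite directions, members of a list of antisense RNAs studied in cancer, their partners, and those at the threshold; some genes that the rule names are not reported here. Other lists were the nuclear RNA exosome, the HUSH complex, epithelial markers and markers of other cells.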

Additional observations from a re-analysis of the deposited data

How the results depend on the processing

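The number of antisense genes called, 103, was 98 with DESeq2, 101 without TMM, 104 with DESeq2 size factors, 104 unfiltered, 104 when genes averaged at least 10 counts, and 132 under the replicate block. No called member changed sign under any of these settings or with any library left out. Leaving out each library in turn gave 80 to 109 antisense genes called (34 to 47 higher, 46 to 62 lower), 96 to 130 partners, 45 to 68 pairs called in the same direction and 5 to 9 in opposite directions, 11 to 21 called ratios, and a MORC2 change of -0.74 to -0.55. Requiring a log2 fold change of at least 1 in size left 14 antisense genes (7 higher and 7 lower), 10 partners, 3 pairs in the same direction and 0 in opposite directions. The replicate block gave 14 pairs in opposite directions and 16 called ratios. With only the pairs that share no exonic base, 3 pairs were called in the same direction, 4 in opposite directions and 9 ratios were called. An alternative chosen after seeing the data kept only antisense genes sharing no exonic base with any gene, and gave 2, 2 and 5. For single genes, 1408 alternative values kept the direction and the side of the threshold, 28 lost the call, 17 gained it and 11 changed sign. The sign changes came with 1 library left out, in genes that were not called, with ranges of -0.104 to 0.172 for HLA-F-AS1, -0.0142 to 0.0923 for RRM1, -0.0224 to 0.188 for SLC16A1, -0.0020 to 0.114 for STARD7, -0.124 to 0.027 for VIM and -0.0794 to 0.0727 for FLVCR1. EZR, called at an adjusted p of 0.0376, was not called in 6 of 14 alternative fits. Among these were the fits without shCtrl replicate 1 or 3 or shMORC2 replicate 2 or 3 (0.0679 to 0.163). TTN was not called without shCtrl replicate 2 or shMORC2 replicate 2 or 3. Among the genes named here, the block turned no other call than those given with the results, besides RRM1-AS1 and TMPO, which it called. The cause of these shifts was not tested. Antisense genes with about 100 counts in a library, such as URB1-AS1 and MAFG-AS1, carry SEs of 0.17.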

Other observations

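Other antisense and noncoding gene groups of the table were counted by the same calls, beside 39.5% called over all genes tested. The shares were not matched for depth, and their differences were not tested. Of the 771 genes ending in -AS1 below 600 counts, 296 passed the filter, with 51 called higher and 28 lower, 26.7%. Among genes numbered -AS2 to -AS9, 34 of 133 passed, with 9 higher and 8 lower, 50%. Of 136 intronic transcripts ending in -IT, 12 passed, with 0 higher and 2 lower by edgeR (0 and 5 at an unadjusted p under 0.05, 0 and 1 by DESeq2). Of 10 overlapping transcripts ending in -OT, 4 passed, with 0 called in either direction by edgeR or DESeq2 (1 higher and 0 lower at an unadjusted p under 0.05). The full list of antisense RNAs studied in cancer had 47 tested genes, 9 higher and 11 lower (42.6%), with a median log2 fold change of -0.08.

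The nuclear RNA exosome, which degrades many promoter-derived RNAs, and its adaptors had 25 tested genes. Of these, 3 were called higher and 8 lower (44%), with a median of -0.09. The catalytic subunit gene DIS3 fell by 0.42 (adjusted p = 0.00199) and ZFC3H1, an adaptor of polyadenylated nuclear RNA, by 0.50 (adjusted p = 0.000514). The cofactor genes C1D, MPHOSPH6 and SRRT rose by 0.61, 0.39 and 0.41. Of 9 tested genes of the HUSH complex and its partners, 1 was called higher and 5 lower, MORC2 among them. MPHOSPH8 fell by 0.24 (adjusted p = 0.0145), SETDB1 by 0.34 (adjusted p = 0.00625) and ATF7IP by 0.41 (adjusted p = 0.000964), and ATF7IP2 rose by 0.54 (adjusted p = 0.00588). Over all 21005 genes tested, 4185 were called higher and 4116 lower, 39.5% in all. DIS3, ZFC3H1 and the other genes named in this paragraph were chosen after their values were seen.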
